A study of Homo sapiens with 5 samples.

Results

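The comparison is of Ishikawa cells co-cultured with adipocytes against Ishikawa cells grown alone, and it rests on 3 of the 5 libraries of the series: 2 of co-culture and 1 of monoculture, chosen by their labels. Ishikawa is a human cell line established from an endometrial adenocarcinoma. In co-culture the cancer cells lay in the bottom chamber of a transwell and mature adipocytes in the upper one, in DMEM with 10% serum for 3 days, and pores of 0.4 µm separated both cell types. The adipocytes had been differentiated from preadipocytes with insulin, dexamethasone and IBMX, and the labels give neither their species nor their source. Monoculture is named as the control, but its medium and duration are not stated separately, while the line was otherwise kept in DMEM-F12. The comparison therefore holds the adipocytes and any difference in medium or culture time together, and these cannot be told apart. The other 2 libraries, co-culture with the SIRT1 inhibitor EX527, enter only where they are named. Poly(A) RNA was sequenced and counted per gene, and CPM below are counts scaled to 1000000 reads of a library.

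Adipocytes release fatty acids, hormones and cytokines, and the membrane lets soluble factors through but not cells. Secreted and membrane proteins fold in the endoplasmic reticulum (ER), whose load is sensed by IRE1, PERK and ATF6. When folding capacity is short these sensors raise chaperone genes, and PERK, with other kinases that respond to lack of amino acids, phosphorylates eIF2 and so raises ATF4 and its targets, a program called the integrated stress response. Endometrial epithelium is a glandular tissue with secretory and ciliated cells, and its growth and differentiation follow estrogen and progesterone.

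The 2 co-culture libraries held 48549180 and 52269963 counted reads and the monoculture library 46226566. The table holds 57992 genes, and 28617 with enough reads were tested with edgeR's quasi-likelihood test. A gene is called here when its Benjamini-Hochberg adjusted p is under 0.05 and its level differs at least 2-fold. By this rule 3521 genes were higher in co-culture, which is 12.3% of those tested, and 3221 were lower, which is 11.3%. Counts of called genes in the lists below are read against these shares, and a share near them is no result about a list. Where a list was not fully tested, its counts describe the members that passed the filter. A gene at few reads could pass it through 1 group alone. Of the 6742 called genes, 6741 had both co-culture libraries on the same side of monoculture. The median log2 fold change over all tested genes was 0.04. Among 11076 well-read genes (mean log2 CPM 4 or more), log2 differences had an SD of 0.11 between the co-culture libraries and 0.76 between their mean and monoculture. No gene of that set differed 2-fold or more between the co-culture libraries. These calls depend on that narrow spread: nothing in the labels says that the pair came from separate cultures, so p-values measure the spread of these samples, which may be technical, and the lone monoculture library is assumed to vary like them. When the EX527 libraries were added to the fit, or set the spread with co-culture replicate 1 or 2 left out, edgeR called 0 genes, with 5526, 866 and 910 genes at an unadjusted p under 0.05. The common dispersion, edgeR's measure of spread shared over genes, was 0.264 with 5 libraries and 0.00395 with 3. The pair added in the larger fit is the EX527 pair. Without any test, 817 genes of the well-read set were at least 2-fold higher in co-culture and 1105 at least 2-fold lower, against 802 and 1094 without co-culture replicate 1 and 864 and 1137 without co-culture replicate 2.

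**Figure D1:**
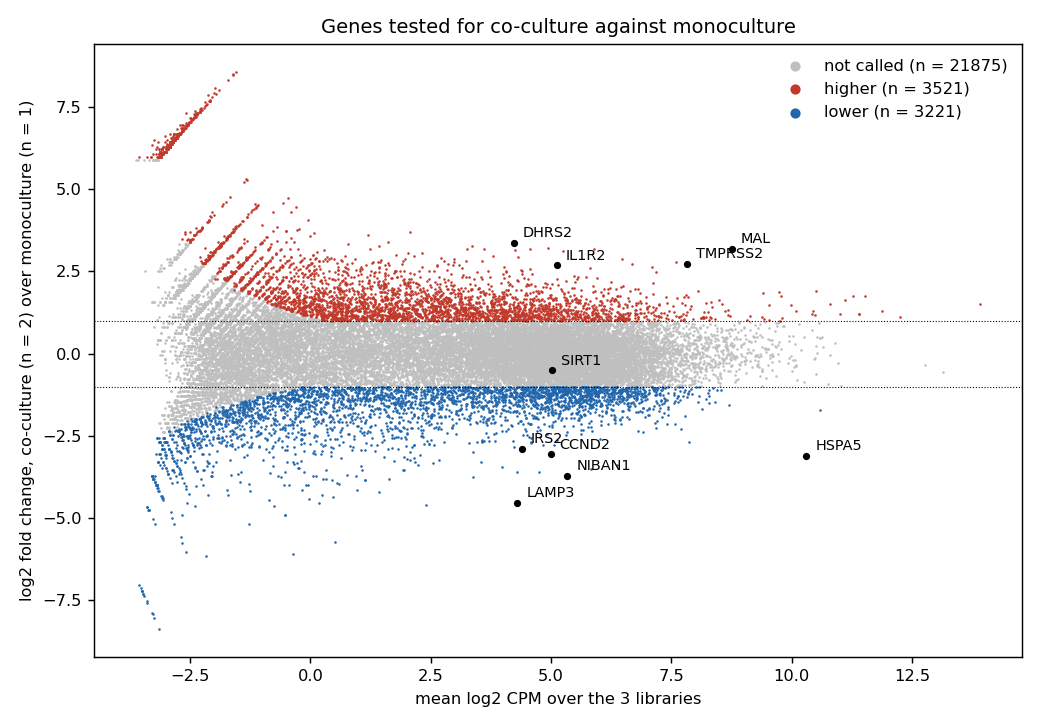
Each point is 1 of 28617 tested genes, with its mean log2 CPM over the 3 libraries on the x axis and its log2 fold change of co-culture over monoculture on the y axis. Red and blue points are the 3521 genes called higher and the 3221 called lower, and dotted lines mark a 2-fold difference.

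The difference followed the base composition and the length of the genes. Over 10981 well-read genes with a known transcript, the median log2 fold change went from -0.57 in the tenth of genes with the lowest GC content to 0.40 in the tenth with the highest (Spearman's rho 0.45 across genes, which are not independent replicates). The co-culture libraries differed from each other along GC content as well, by medians from -0.05 to 0.12 (rho 0.49), a smaller range. By transcript length, the median log2 fold change went from 0.12 in the tenth of well-read genes with the shortest transcripts to -0.42 in the tenth with the longest, and the part of length in the results was not tested. A fit with an offset that takes out the median difference of each GC bin, added after this was seen, called 3388 genes higher and 2811 lower, of which 2809 and 2358 were also called without it. The part of GC content in each result was not tested further, and values with the offset are given for list counts of 5 or more that it lowered by 1.5 times or more and for named genes whose call it ended. Besides GAPDH and NR3C1 below, the log2 fold change of ERBB2 fell under the 2-fold condition with the offset, at 0.90, as did those of ERO1B (-0.72), GARS1 (-0.81), SQLE (-0.98) and CFAP53 (-0.90).

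**Figure D2:**
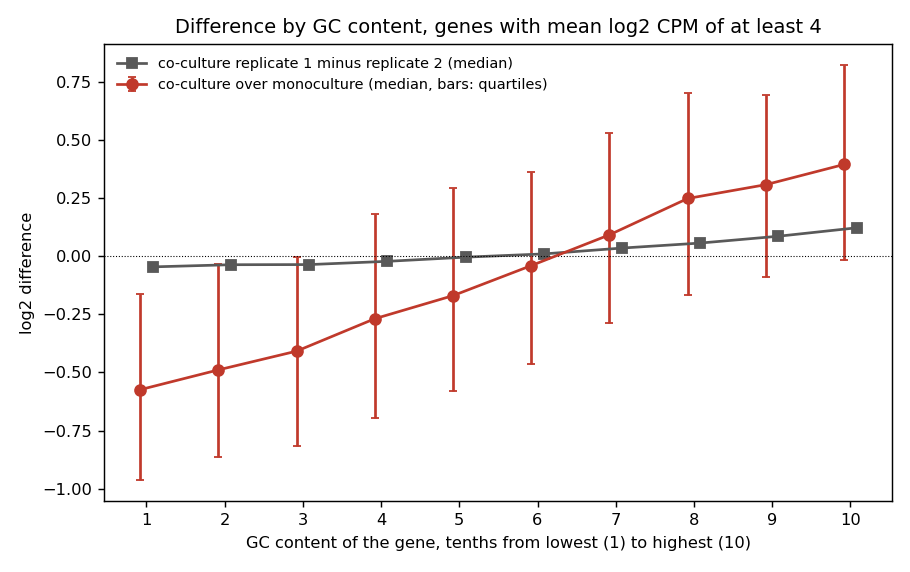
Well-read genes (mean log2 CPM 4 or more) are split by GC content into 10 bins of like size on the x axis, and the y axis gives log2 differences. Red points are medians of co-culture over monoculture with quartile bars, running from -0.57 to 0.40, and grey squares are medians of co-culture replicate 1 minus replicate 2, running from -0.05 to 0.12.

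SIRT1 encodes the NAD-dependent deacetylase that EX527 inhibits. It lies on chromosome 10 from 67884656 to 67918390 (GRCh38, GENCODE 44). Its level was 27.7 and 30.7 CPM in co-culture and 40.1 CPM in monoculture. Both co-culture libraries lay below monoculture, with a log2 fold change of -0.50 (SE 0.10, adjusted p = 1.61e-06), which does not reach 2-fold. With the GC offset it was -0.14 (adjusted p = 0.237), so the difference passed the threshold only without the offset. Of 21 tested genes of sirtuins and NAD metabolism, 3 were called higher and 2 lower, 14.3% and 9.52% against 12.3% and 11.3% of all genes. NAMPT, which makes the NAD precursor NMN from nicotinamide, had 46.8 and 47.6 CPM in co-culture and 134 CPM in monoculture and was 2.93-fold lower. SIRT3, the main deacetylase of mitochondria, had 29.6 and 30.4 CPM in co-culture and 11.6 CPM in monoculture and was 2.52-fold higher.

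HSPA5 and 2 of the 3 sensors of ER stress were called lower in co-culture. HSPA5, the ER chaperone BiP that also keeps the 3 stress sensors inactive, had 624 and 621 CPM in co-culture and 5189 CPM in monoculture. Both co-culture libraries were far below monoculture, 8.60-fold lower (log2 fold change -3.10, SE 0.06). Of the sensors, ERN1, which encodes IRE1, had 13.6 and 12.9 CPM in co-culture and 56.4 CPM in monoculture. It was called lower at a log2 fold change of -2.14 (SE 0.10). EIF2AK3, which encodes PERK, had 34.6 and 31.4 CPM in co-culture and 89.4 CPM in monoculture and was also called lower, 2.80-fold. ATF6 had 57.2 and 60.7 CPM in co-culture and 111 CPM in monoculture, a log2 fold change of -0.96 (SE 0.08) that misses the 2-fold condition. In each of the 4 both co-culture libraries lay below monoculture.

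The folding genes differed among themselves. Of 33 tested ER chaperones and folding enzymes, 8 were called lower and 0 higher, a share of 24.2% against 11.3% of all genes, with a median log2 fold change of -0.49. DNAJB9, a BiP co-chaperone, had 13.9 and 12.3 CPM in co-culture and 73.7 CPM in monoculture and was 5.79-fold lower. DNAJC3, which restrains PERK, had 67.6 and 71.1 CPM in co-culture and 204 CPM in monoculture and was 3.03-fold lower. MANF and HYOU1, an ER stress-induced secreted factor and a nucleotide exchange factor of BiP, were 2.73-fold and 2.42-fold lower. Other abundant members were close to level: CALR, a lectin chaperone, had 999.8 and 1006 CPM in co-culture and 1015 CPM in monoculture, and PDIA4, a disulfide isomerase, had 386 and 373 CPM in co-culture and 351 CPM in monoculture. HSP90B1, the ER form of HSP90, had 1213 and 1325 CPM in co-culture and 1894 CPM in monoculture, a log2 fold change of -0.62 (SE 0.06) under the 2-fold condition. With the GC offset 5 of the 33 were called lower.

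**Figure D3:**
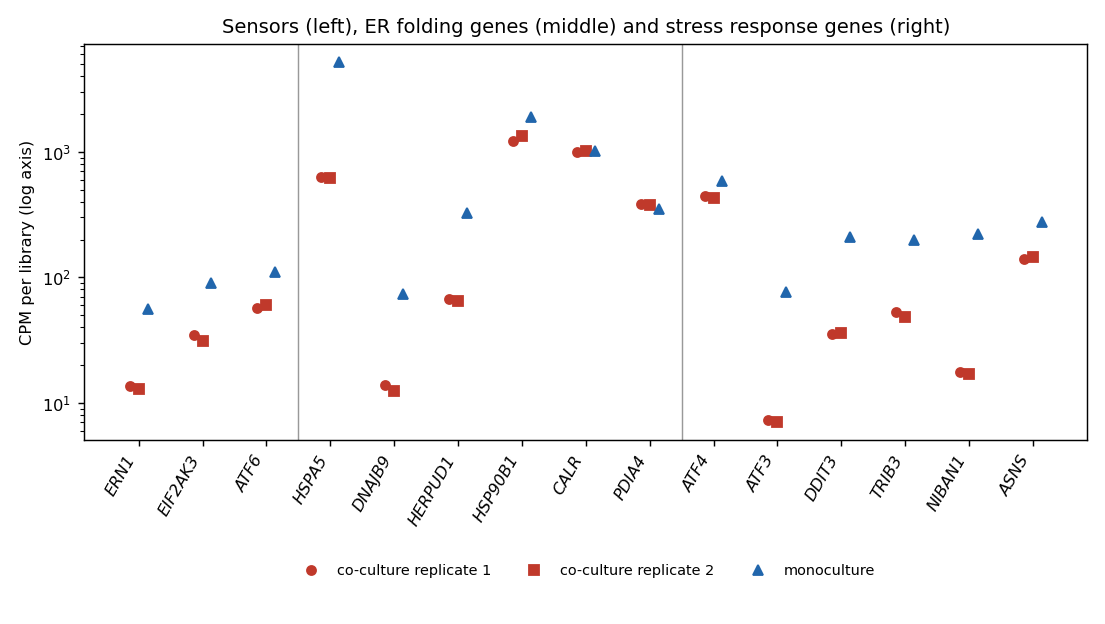
The CPM of 15 genes is plotted per library on a log axis, with red circles and squares for co-culture replicates 1 and 2 and blue triangles for monoculture. Monoculture lies above both co-culture libraries for HSPA5, ATF3 and DDIT3, while CALR and PDIA4 sit at nearly the same level in all 3 libraries.

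A motif known as the ER stress element, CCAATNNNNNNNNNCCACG, was looked for on both strands in the 250 bases before the RefSeq start of each gene. It stood in 22 of 27305 promoters (0.0806%) and in 6 of the 31 found for the chaperone list, which are those of CALR, CANX, CRELD2, ERO1B, HSP90B1 and HSPA5. These are printed for HSPA5, the member with the largest decrease, and for CALR, which holds the motif and stayed near level, with the motif in capitals (GRCh38.p14, RefSeq). The HSPA5 window is chr9:125241344-125241593 on the minus strand and the CALR window is chr19:12938359-12938608 on the plus strand, each written along its gene.
HSPA5: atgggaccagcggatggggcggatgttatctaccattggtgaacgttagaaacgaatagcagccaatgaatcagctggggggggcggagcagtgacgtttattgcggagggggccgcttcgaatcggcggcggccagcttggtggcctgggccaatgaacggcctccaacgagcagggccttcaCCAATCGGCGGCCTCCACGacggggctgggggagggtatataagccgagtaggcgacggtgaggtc
CALR: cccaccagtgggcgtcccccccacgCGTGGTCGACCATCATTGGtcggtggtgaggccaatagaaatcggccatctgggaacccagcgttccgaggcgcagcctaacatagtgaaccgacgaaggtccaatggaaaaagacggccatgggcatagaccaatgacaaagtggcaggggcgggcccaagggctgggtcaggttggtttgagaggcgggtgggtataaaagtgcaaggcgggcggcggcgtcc
The presence of the motif is a description of sequence and does not show that a factor is bound there. Of the 6 genes with it, HSPA5 and ERO1B were called lower and the other 4 were not called.

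ER-associated degradation returns misfolded proteins to the cytosol. 9 of its 23 tested genes were called lower, 39.1% against 11.3% of all genes, and 0 higher (median -0.69), or 5 with the GC offset. HERPUD1, a scaffold of the degradation complex, had 66.9 and 65.1 CPM in co-culture and 324 CPM in monoculture and was 5.06-fold lower. SEL1L, its adaptor, had 98.4 and 105 CPM in co-culture and 330.1 CPM in monoculture and was 3.34-fold lower. Of 36 tested genes of the translocon, glycosylation and vesicle coats, 12 were called lower (33.3%) and 0 higher (median -0.77), or 7 with the offset. SEC31A, an outer coat subunit of vesicles leaving the ER, had 71.9 and 83.2 CPM in co-culture and 254 CPM in monoculture and was 3.37-fold lower.

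Among regulators of the integrated stress response, 13 of 20 were called lower and 0 higher, a share of 65% lower against 11.3% of all genes, and all 20 had a negative log2 fold change, with a median of -1.35. The transcription factor ATF4 itself had 441 and 426 CPM in co-culture and 584 CPM in monoculture, a log2 fold change of -0.47 (SE 0.07) that was not called. ATF3, a factor ATF4 induces, had 7.33 and 7.02 CPM in co-culture and 76.3 CPM in monoculture and was 10.96-fold lower. DDIT3, which encodes the pro-apoptotic factor CHOP and overlaps MARS1 and MBD6, had 35.6 and 36.02 CPM in co-culture and 211 CPM in monoculture and was 6.08-fold lower. TRIB3, a pseudokinase that feeds back on ATF4, had 53.3 and 48.1 CPM in co-culture and 198 CPM in monoculture and was 4.03-fold lower. NIBAN1, a stress-induced regulator of translation, had 17.8 and 16.9 CPM in co-culture and 220.1 CPM in monoculture and was 13.1-fold lower. GDF15, a secreted stress cytokine, had 92.4 and 80.2 CPM in co-culture and 404 CPM in monoculture and was 4.83-fold lower. CHAC1, which degrades glutathione, was not called at 28.98 and 25.2 CPM with adipocytes against 34.1 CPM without.

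Genes of amino acid supply had shares called lower not far from that of all genes, while their list medians were negative. Of 20 aminoacyl-tRNA synthetase genes, which charge tRNAs, 3 were called lower (GARS1, SARS1 and AARS1), 15% against 11.3% of all genes, and 0 higher. Of the 20, 18 had a negative log2 fold change, with a median of -0.63. Of 18 genes of serine, glycine, asparagine and proline synthesis 2 were called higher and 3 lower (11.1% and 16.7%, median -0.29). ASNS, asparagine synthetase and a common readout of ATF4, had 141 and 144 CPM in co-culture and 274 CPM in monoculture, a log2 fold change of -0.99 (SE 0.07) just under 2-fold. PHGDH, the first enzyme of serine synthesis, went the other way at 493 and 459.8 CPM with adipocytes against 283 CPM without and was not called. MTHFD2, of mitochondrial folate metabolism, had 222 and 219 CPM in co-culture and 551 CPM in monoculture and was 2.58-fold lower. Among 19 tested amino acid transporters 3 were called lower (15.8%) and 0 higher, with a median of -0.50.

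**Figure D4:**
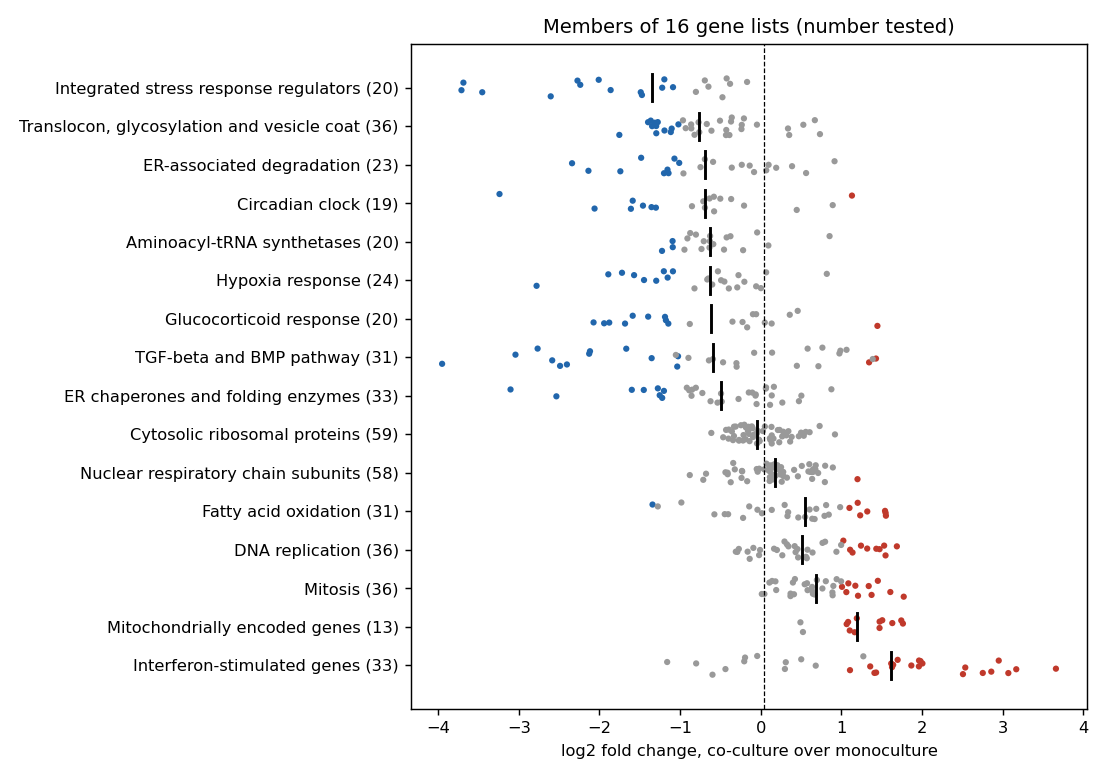
Each point is a tested member of 1 of 16 gene lists, at its log2 fold change of co-culture over monoculture, with red for called higher, blue for called lower and grey for not called. Black bars are medians of the tested members, from -1.35 for the integrated stress response to 1.62 for interferon-stimulated genes, and the dashed line is the median of all tested genes, 0.04. The interferon median covers 33 of 42 listed genes, those that passed the filter, and does not describe the whole list.

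Several hypoxia-responsive genes were lower. Of 24 hypoxia genes 9 were called lower, 37.5% against 11.3% of all genes, and 0 higher (median -0.62), or 6 with the GC offset. VEGFA, the main angiogenic growth factor, had 144 and 144 CPM in co-culture and 518 CPM in monoculture and was 3.71-fold lower. LOX, which crosslinks collagen, had 17.1 and 18.1 CPM in co-culture and 117 CPM in monoculture and was 6.87-fold lower. CA9, a carbonic anhydrase and a common hypoxia marker, had 4.86 and 5.32 CPM in co-culture and 4.93 CPM in monoculture and was not called. Of 32 genes of glycolysis and glucose uptake, 6 were called higher and 4 lower, 18.8% and 12.5% against 12.3% and 11.3% of all genes. GAPDH, often used as a reference gene, had 5165 and 5038 CPM in co-culture and 2024 CPM in monoculture and was 2.44-fold higher, or a log2 fold change of 0.94 with the offset, under the 2-fold condition. PDK2, which slows entry of pyruvate into mitochondria, had 33.9 and 32.2 CPM in co-culture and 6.97 CPM in monoculture and was 4.60-fold higher. HK2, an inducible hexokinase, had 53.5 and 50.6 CPM in co-culture and 162 CPM in monoculture and was 3.22-fold lower.

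Adipocytes supply fatty acids, so the genes that take them up, store and burn them were set out by role. Of 31 tested genes of uptake and lipid droplets 2 were called higher and 5 lower, 6.45% and 16.1% against 12.3% and 11.3% of all genes. CD36, a fatty acid transporter, and PLIN2, a droplet coat protein, were barely read in any library, at 0.206 and 0.765 CPM with adipocytes against 0.389 CPM without and 0.165 and 0.593 CPM in co-culture and 0.260 CPM in monoculture. LPL, which frees fatty acids from lipoproteins, had 17.96 and 19.1 CPM in co-culture and 67.6 CPM in monoculture and was 3.76-fold lower. AGPAT2, of triglyceride synthesis, had 168 and 167 CPM in co-culture and 53.2 CPM in monoculture and was 3.06-fold higher. Fatty acid oxidation had 7 of 31 genes called higher and 1 lower, 22.6% against 12.3% of all genes, with a median of 0.55. CPT1A, the gate of fatty acid entry into mitochondria, had 161 and 170.4 CPM in co-culture and 91.6 CPM in monoculture and was not called. CPT2, the inner membrane partner of CPT1A, had 52.6 and 51.4 CPM in co-culture and 20.2 CPM in monoculture and was 2.50-fold higher. DECR1 and ACADS, enzymes of the oxidation spiral, were 2.91-fold and 2.93-fold higher.

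Regulators of lipid metabolism were mixed. PPARG, the nuclear receptor that drives fat storage, had 6.78 and 6.43 CPM in co-culture and 40.04 CPM in monoculture and was 6.26-fold lower, and PPARGC1A, a coactivator for mitochondrial genes, was 2.99-fold lower. SREBF1, which activates fatty acid synthesis, had 351 and 329 CPM in co-culture and 95.2 CPM in monoculture and was 3.46-fold higher. Its target FASN, fatty acid synthase, had 922 and 851 CPM in co-culture and 505 CPM in monoculture and was not called, nor was SCD at 808 and 837 CPM with adipocytes against 923 CPM without. Cholesterol synthesis and uptake had 3 genes called higher and 4 lower of 30, 10% and 13.3% against 12.3% and 11.3% of all genes. SQLE and MSMO1, both enzymes of synthesis, were among those called lower.

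Transcripts of the mitochondrial genome were higher. Of 13 protein-coding genes, 11 were called higher, 84.6% against 12.3% of all genes, and 0 lower, with a median log2 fold change of 1.19. They took 4.99% and 5.20% of reads in co-culture and 1.90% in monoculture. MT-CO1, a catalytic subunit of cytochrome oxidase, had 21696 and 22608 CPM in co-culture and 7552 CPM in monoculture. MT-ND6, the only one of the 13 on the light strand, had 671 and 672 CPM in co-culture and 453 CPM in monoculture and was not called. The genes that the nucleus supplies for the respiratory chain were near level, with 1 of 58 called higher, 0 lower and a median of 0.17. Copies of mitochondrial genes in the nucleus may share reads with these transcripts. The mitochondrial ribosomal RNA MT-RNR2, named after its values were seen, had 6159 and 6847 CPM in co-culture and 8067 CPM in monoculture. Since ribosomal RNA was removed before the reads of these poly(A) libraries were mapped, its counts may not follow its level in the cells.

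Several genes of DNA replication and mitosis were higher. Of 36 replication genes 10 were called higher, 27.8% against 12.3% of all genes, and 0 lower (median 0.51). Of 36 mitosis genes 10 were likewise called higher and 0 lower, with all 36 log2 fold changes above 0 (median 0.68). CDC45, a part of the replicative helicase, had 45.2 and 46.1 CPM in co-culture and 13.7 CPM in monoculture and was 3.22-fold higher. MCM5, a subunit of the same helicase, had 79.2 and 70.7 CPM in co-culture and 25.1 CPM in monoculture and was 2.89-fold higher. CCNB1, the cyclin of entry into mitosis, had 337 and 338 CPM in co-culture and 119.6 CPM in monoculture and was 2.74-fold higher. HMMR, a spindle protein, had 103 and 104 CPM in co-culture and 29.4 CPM in monoculture and was 3.42-fold higher. The proliferation marker MKI67 had 151 and 152 CPM in co-culture and 121 CPM in monoculture and was not called. Among cyclins and CDK inhibitors 6 of 27 were called higher and 4 lower (22.2% and 14.8% against 12.3% and 11.3% of all genes), or 4 and 3 with the GC offset. CCND2, a G1 cyclin, had 16.3 and 15.4 CPM in co-culture and 127 CPM in monoculture and was 8.30-fold lower, while CCND1 had 173 and 176 CPM in co-culture and 186 CPM in monoculture and was not called. Of 20 p53 targets 2 were called higher and 4 lower, 10% and 20% against 12.3% and 11.3% of all genes. GADD45A, a growth arrest gene also induced by stress, had 11.9 and 11.5 CPM in co-culture and 139 CPM in monoculture and was 12.2-fold lower, while CDKN1A, the CDK inhibitor p21, stood at 262 and 259 CPM with adipocytes against 253 CPM without.

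A number of interferon-stimulated genes were called higher in co-culture, many of them at few reads. Of 42 listed genes 33 passed the filter and 9 were not tested, and 21 of the 33 were called higher and 0 lower, where 12.3% of all tested genes were called higher, with a median log2 fold change of 1.62. Because a gene at few reads could pass through co-culture alone, these figures describe the members that passed and not the list, and nothing is read from their share. IFI6, an interferon-induced membrane protein, had 9.72 and 10.6 CPM in co-culture and 1.17 CPM in monoculture and was 8.41-fold higher. IFIT1, which binds viral RNA, had 3.34 and 4.13 CPM in co-culture and 0.930 CPM in monoculture. Its partner IFIT3 had 2.68 and 2.54 CPM in co-culture and 0.346 CPM in monoculture. BST2, which tethers budding virus, had 12.8 and 13.2 CPM in co-culture and 3.87 CPM in monoculture and was 3.25-fold higher. IFITM3, which blocks viral entry and has close paralogs, had 52.01 and 44.9 CPM in co-culture and 15.03 CPM in monoculture and was 3.12-fold higher. Of the factors that transmit the interferon signal, neither of these was called: STAT2 had 119 and 116 CPM in co-culture and 131 CPM in monoculture and IRF9 had 9.66 and 10.3 CPM in co-culture and 9.99 CPM in monoculture. The interferon gene IFNB1, named after its values were seen, had 0, 2 and 0 reads in co-culture replicates 1 and 2 and monoculture.

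The core of the interferon-stimulated response element, GAAANNGAAA on either strand, stood in 3.07% of the 27305 promoters and in 19 of the 34 found for this list. The windows of IFI6 and IFIT3, both called higher, are printed with each match in capitals (GRCh38.p14, RefSeq). They are chr1:27672193-27672442 on the minus strand and chr10:89327747-89327996 on the plus strand, written along each gene.
IFI6: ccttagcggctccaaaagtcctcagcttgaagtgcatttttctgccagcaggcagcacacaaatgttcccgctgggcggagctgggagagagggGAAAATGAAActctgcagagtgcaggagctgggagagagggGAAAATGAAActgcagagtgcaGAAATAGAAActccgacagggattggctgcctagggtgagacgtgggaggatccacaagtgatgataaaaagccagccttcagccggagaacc
IFIT3: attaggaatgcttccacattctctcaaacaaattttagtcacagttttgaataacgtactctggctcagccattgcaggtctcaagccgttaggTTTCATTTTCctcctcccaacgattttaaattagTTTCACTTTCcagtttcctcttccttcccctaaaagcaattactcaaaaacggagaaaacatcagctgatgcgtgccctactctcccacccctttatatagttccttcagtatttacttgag
IFI6 has 3 matches and IFIT3 has 2. Among the members with a promoter found, the motif stood before 14 of 18 called higher, 3 of 8 not called and 2 of 8 not tested. Nothing is read from this split, because members at few reads could pass the filter through co-culture alone. The motif does not show that a factor is bound there.

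Of 19 tested genes of MHC class I and antigen processing 3 were called higher and 3 lower, 15.8% each and near the 12.3% and 11.3% of all genes. HLA-B, a class I heavy chain whose paralogs may share reads, had 8.12 and 7.37 CPM in co-culture and 47.4 CPM in monoculture and was 6.33-fold lower, while B2M, the light chain of class I molecules, had 94.5 and 106 CPM in co-culture and 88.3 CPM in monoculture and was not called. Of 32 cytokine and chemokine genes 22 were tested, with 5 called higher and 2 lower (22.7% and 9.09%), most of them at few reads. TNFSF10, the death ligand TRAIL, had 3.56 and 3.65 CPM in co-culture and 1.17 CPM in monoculture. IL6, a cytokine that adipose tissue releases, had 4, 1 and 2 reads in the same order as above. The NF-kB regulators had 2 genes called higher and 1 lower of 23 tested (8.7% and 4.35%).

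Of 31 receptors and carriers for adipokines, insulin and IGFs 4 were called higher and 5 lower, 12.9% and 16.1% against 12.3% and 11.3% of all genes. The leptin, adiponectin and insulin receptors named here were not called. LEPR, the leptin receptor, had 67.8 and 73.3 CPM in co-culture and 65.2 CPM in monoculture, ADIPOR1, an adiponectin receptor, had 75.04 and 71.95 CPM in co-culture and 125 CPM in monoculture, and INSR, the insulin receptor, had 38.5 and 40.9 CPM in co-culture and 45.4 CPM in monoculture. Below the insulin receptor, the adaptor IRS2 had 10.8 and 10.96 CPM in co-culture and 78.4 CPM in monoculture and was 7.44-fold lower. IGFBP3, which binds IGFs in the medium, had 1337 and 1304 CPM in co-culture and 383 CPM in monoculture and was 3.35-fold higher. Of 20 glucocorticoid-responsive genes 9 were called lower, 45% against 11.3% of all genes, and 1 higher (median -0.62). Dexamethasone had been used on the adipocytes, and whether it had a part in these values was not tested. PER1 and KLF9, both direct targets of the glucocorticoid receptor, had 18.4 and 16.5 CPM in co-culture and 50.7 CPM in monoculture and 7.39 and 7.67 CPM in co-culture and 30.8 CPM in monoculture. FKBP5, another such target, had 18.9 and 21.3 CPM in co-culture and 17.8 CPM in monoculture and was not called, and the receptor gene NR3C1 was called lower at 16.004 and 17.6 CPM with adipocytes against 36.8 CPM without, with a log2 fold change of -0.76 with the GC offset.

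For the steroid axis of the endometrium, 2 of 23 tested genes were called higher and 7 lower, the latter 30.4% against 11.3% of all genes. The list holds 28 genes, and one at few reads could pass the filter through monoculture alone, so nothing is read from this share. ESR1, the estrogen receptor, had 20.2 and 19.5 CPM in co-culture and 26.002 CPM in monoculture and was not called. PGR, the progesterone receptor and an estrogen target, had 12 and 8 reads in co-culture and 272 in monoculture. It was called lower at 0.247 and 0.153 CPM with adipocytes against 5.88 CPM without. GREB1, another estrogen target, moved the opposite way at 21.3 and 21.3 CPM with adipocytes against 9.28 CPM without, 2.22-fold higher.

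Growth factor and early response genes had more members called lower than higher. Of 23 tested EGFR family genes 9 were called lower, 39.1% against 11.3% of all genes, and 2 higher. AREG, the ligand amphiregulin, had 0.947 and 0.861 CPM in co-culture and 10.3 CPM in monoculture and was 11.7-fold lower, and TGFA, another ligand, had 33.5 and 33.8 CPM in co-culture and 85.9 CPM in monoculture and was 2.64-fold lower. ERRFI1 and DUSP4, feedback inhibitors of the pathway, were 3.68-fold and 3.37-fold lower. Of the receptors, ERBB2 had 184 and 178 CPM in co-culture and 74.1 CPM in monoculture and was 2.37-fold higher, while EGFR had 57.3 and 55.7 CPM in co-culture and 105 CPM in monoculture and was not called. 11 of 26 immediate early factors were called lower, 42.3% against 11.3% of all genes, and 1 higher. JUN, an AP-1 subunit, had 17.3 and 16.5 CPM in co-culture and 65.6 CPM in monoculture and was 3.997-fold lower, and MYC had 42.5 and 38.4 CPM in co-culture and 49.1 CPM in monoculture and was not called. In the TGF-beta and BMP pathway 12 of 31 were called lower, 38.7% against 11.3% of all genes, and 2 higher. ID4 and ID1, inhibitors of differentiation that BMP signals induce, went opposite ways, with ID4 6.81-fold lower at 16.4 and 14.1 CPM with adipocytes against 100.3 CPM without and ID1 2.69-fold higher at 139.8 and 128 CPM with adipocytes against 48.2 CPM without. INHBE, an activin subunit, had 44.02 and 45.4 CPM in co-culture and 189.6 CPM in monoculture and was 4.37-fold lower. WNT and NOTCH genes had 2 called higher and 6 lower of 36 tested, 5.56% and 16.7% against 12.3% and 11.3% of all genes.

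Several epithelial genes were higher and several mesenchymal genes lower. Of 37 keratin and junction genes 12 were called higher and 3 lower, 32.4% against 12.3% of all genes. KRT8 and KRT18, the paired keratins of simple epithelium, had 2449.8 and 2131 CPM in co-culture and 589.8 CPM in monoculture and 1094 and 994 CPM in co-culture and 281 CPM in monoculture. They were 3.77-fold and 3.61-fold higher, their gene bodies overlap, and pseudogenes may share their reads. CLDN4, a tight junction protein, had 441 and 414 CPM in co-culture and 143 CPM in monoculture and was 2.89-fold higher, while OCLN, another one, was 2.64-fold lower. CDH1, E-cadherin, had 223 and 232 CPM in co-culture and 187 CPM in monoculture and was not called. Of 30 tested mesenchymal and invasion genes 10 were called lower and 4 higher, 33.3% and 13.3% against 11.3% and 12.3% of all genes. VIM, the filament of mesenchymal cells, had 62.4 and 59.9 CPM in co-culture and 197 CPM in monoculture and was 3.33-fold lower. CD44, a hyaluronan receptor, had 27.5 and 27.1 CPM in co-culture and 81.4 CPM in monoculture and was 3.08-fold lower. ZEB1, a repressor of E-cadherin, had 2.08 and 2.26 CPM in co-culture and 12.2 CPM in monoculture and was 5.78-fold lower, while CDH2, N-cadherin, had 26.6 and 30.8 CPM in co-culture and 31.9 CPM in monoculture and was not called. Collagens, laminins and integrins had 7 of 34 called higher and 1 lower (20.6% and 2.94% against 12.3% and 11.3% of all genes), or 3 and 1 with the GC offset.

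**Figure D5:**
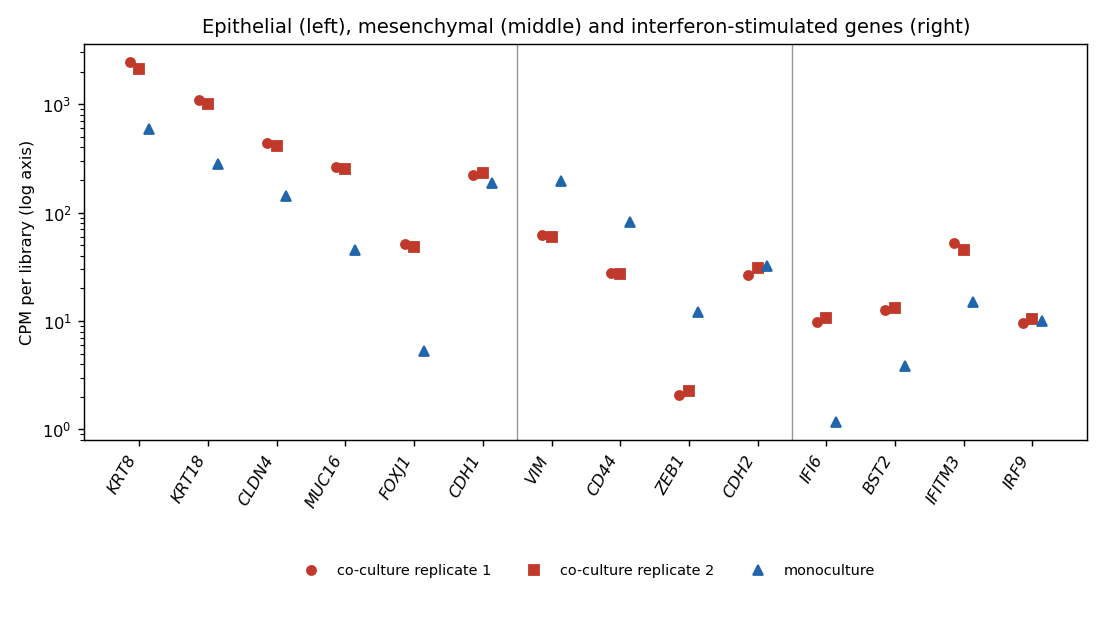
The CPM of 14 genes is plotted per library on a log axis, with red circles and squares for co-culture replicates 1 and 2 and blue triangles for monoculture. Monoculture lies below co-culture for KRT8, MUC16, FOXJ1 and IFI6 and above it for VIM, CD44 and ZEB1, and CDH1 and IRF9 lie close together.

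Of 24 tested endometrial epithelial and secretory genes 7 were called higher and 4 lower, 29.2% and 16.7% against 12.3% and 11.3% of all genes. MUC16, the mucin that carries the CA125 antigen, had 262 and 254 CPM in co-culture and 45.1 CPM in monoculture and was 5.54-fold higher. FOXJ1, the master factor of motile cilia, had 51.6 and 48.001 CPM in co-culture and 5.30 CPM in monoculture and was 9.10-fold higher. WFDC2, the secreted protein HE4, had 185 and 186 CPM in co-culture and 65.6 CPM in monoculture and was 2.74-fold higher. LCN2, a secreted iron carrier, had 2.43 and 1.97 CPM in co-culture and 9.24 CPM in monoculture and was 4.34-fold lower. PAX8, a lineage factor of this epithelium, had 1101 and 1098 CPM in co-culture and 599 CPM in monoculture and was not called.

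Stress systems other than the ER were mixed. Of 32 tested NRF2 targets and antioxidant genes 3 were called higher and 8 lower, the latter 25% against 11.3% of all genes. GCLM, of glutathione synthesis, had 43.5 and 44.5 CPM in co-culture and 119 CPM in monoculture and was 2.78-fold lower, while AKR1C3, a reductase, had 72.6 and 72.5 CPM in co-culture and 25.2 CPM in monoculture and was 2.79-fold higher. Cytosolic heat shock genes had 1 of 26 called higher and 5 lower, 3.85% and 19.2% against 12.3% and 11.3% of all genes. HSPA1B was among the lower ones, and its near-identical copy HSPA1A may share reads. Of 19 clock genes 7 were called lower, 36.8% against 11.3% of all genes, and 1 higher. CRY1, a repressor of the clock, had 34.3 and 33.5 CPM in co-culture and 90.4 CPM in monoculture and was 2.75-fold lower, while BMAL1, its activator, had 8.61 and 9.91 CPM in co-culture and 14.7 CPM in monoculture and was not called. None of 59 cytosolic ribosomal protein genes was called in either direction by edgeR, although 43 of them had an unadjusted p under 0.05, and DESeq2 with the 2-fold condition called 0 as well. Autophagy and lysosome genes had 4 of 32 called higher and 3 lower, 12.5% and 9.4% against 12.3% and 11.3% of all genes.

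The largest fold changes at well-read genes included some outside these groups. On the lower side, LAMP3, a lysosomal membrane protein induced by ER stress and interferon, had 7.17 and 6.73 CPM in co-culture and 156 CPM in monoculture and was 23.1-fold lower. TIPARP, a target and repressor of the aryl hydrocarbon receptor, had 8.24 and 8.82 CPM in co-culture and 101 CPM in monoculture and was 12.2-fold lower. MAP1B, a microtubule protein of neurons, had 24.7 and 26.5 CPM in co-culture and 279.8 CPM in monoculture and was 11.3-fold lower. PEG10, an imprinted gene derived from a retrotransposon, had 38.2 and 38.1 CPM in co-culture and 388 CPM in monoculture and was 10.5-fold lower, as was SGTB, a co-chaperone, by 7.23-fold. On the higher side, DHRS2, a short-chain reductase, had 40.9 and 40.8 CPM in co-culture and 3.83 CPM in monoculture and was 10.3-fold higher. MAL, a lipid raft protein of apical transport, had 924 and 903 CPM in co-culture and 97.5 CPM in monoculture and was 9.08-fold higher. TMPRSS2, a membrane serine protease, had 429.7 and 435 CPM in co-culture and 62.9 CPM in monoculture and was 6.67-fold higher. SLC34A2, a phosphate transporter of epithelia, had 367 and 375 CPM in co-culture and 52.7 CPM in monoculture and was 6.82-fold higher. IL1R2, a decoy receptor for interleukin-1, had 62.1 and 68.2 CPM in co-culture and 9.84 CPM in monoculture and was 6.42-fold higher. TP53I3, MEOX1, TCL1B, UNC93A, DIPK1B and FRG1-DT complete the 12 largest increases, at 6.19-fold to 9.32-fold.

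Markers of other cells were set beside these results. Adipocyte markers summed to 56.8 and 57.8 CPM in co-culture and 134 CPM in monoculture over 20 genes. Of these 11 passed the filter, and 2 were called higher and 2 lower (18.2% each). ADIPOQ, which encodes adiponectin, had 4 and 1 reads in co-culture and 1 in monoculture. LEP, leptin, had 2 and 6 reads against 6, and FABP4, the fatty acid carrier of adipocytes, had 8 and 4 against 2. These named markers were near 0 in all 3 libraries, as far as human transcripts were counted. Not every member was: LPL and PPARG, given above, are on this list and are the 2 called lower. Their decreases together are larger than that of the sum, so the sum does not speak for the other members. The 2 called higher are members not named here, and with the GC offset 0 members were called higher and 2 lower. Fibroblast and preadipocyte markers summed to 423, 399 and 479 CPM in the same order over 20 genes. Of these 12 were tested, 2 called higher and 4 lower (16.7% and 33.3% against 12.3% and 11.3% of all genes). VIM, given above, is on this list, and its decrease is larger than that of the sum. Members at few reads could pass the filter through 1 group alone, so nothing is read from these shares. Leukocyte and endothelial markers summed to 29.8, 31.9 and 22.8 CPM over 18 genes, of which 13 were tested, 2 called higher and 1 lower (15.4% and 7.69%). PTPRC, the leukocyte antigen CD45, had 2.80 and 3.88 CPM in co-culture and 0.779 CPM in monoculture and was called higher, while other leukocyte markers such as CD3E had 3, 0 and 4 reads. Of the 18 epithelial markers of the line 16 were tested, 6 called higher (37.5% against 12.3% of all genes) and 1 lower. They summed to 6653 and 6199 CPM in co-culture and 2805 CPM in monoculture, and EPCAM, an epithelial adhesion protein, had 379 and 394 CPM in co-culture and 252 CPM in monoculture and was not called. KRT8, KRT18 and CLDN4 stand both in this list and among the keratin and junction genes above. The part of any of these marker lists in the other results was not tested. In bulk RNA a change in the share of cells in a state and in RNA per cell cannot be told apart.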

How the data were processed

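The libraries are poly(A) RNA-seq of Ishikawa cells, 2 from co-culture and 1 from monoculture. Each was made from 500 ng of total RNA with 12 PCR cycles, per the series' design text, and STAR v2 mapped the reads that remained once ribosomal RNA had been removed, to GRCh38.p7. featureCounts is named in the submitters' processing notes. The sources used here name neither annotation nor strand setting, and the kit is not described as marking strand, so reads of overlapping or antisense genes cannot be told apart. The authors deposited raw counts per gene. Their normalized table was not used.

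The test was that of edgeR 4.0.16 in R 4.3.3, with filterByExpr (minimum count 10) and TMM scaling. A quasi-likelihood F-test was run on the 3 libraries with 1 residual degree of freedom, followed by Benjamini-Hochberg adjustment. The median prior degrees of freedom were infinite, so most genes were tested with a spread shared over genes and not with their own. SE is the size of the log2 fold change divided by the square root of F. Mean log2 CPM used a prior count of 2. Both co-culture libraries differed beyond sampling noise (chi-square of 5.95 on average over 26474 genes) and were entered as 2 samples. This excess may be technical and does not show that the pair came from separate cultures. At these depths 3 reads are 0.0574 to 0.0649 CPM, which covers counting error only. GC content is that of the longest GENCODE 44 transcript, known for 98.1% of tested genes. The test was checked on simulated counts. A first form of that check also set a minimum share of simulated 2-fold changes to be called. It was narrowly missed and was then replaced, after this was seen, by checks of the fold estimates and of false calls, so 2-fold changes at few reads may be missed.

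Gene lists (47, with 1240 different genes), the groups and the tests were chosen with earlier results of these data known. Genes are named by a rule: SIRT1, the 12 largest called changes per direction at a mean log2 CPM of 4 or more, the largest called members of each list and members whose role is informative. Others are said to be chosen after their values were seen. Alternatives were RLE or library-size scaling, DESeq2 1.42.0, limma-voom (limma 3.58.1), an older dispersion estimate, other filters and fold conditions, all 5 libraries, and leaving out each co-culture library. Values of a few genes are not reported here.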

Additional observations from a re-analysis of the deposited data

How the results depend on the processing

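The counts of genes called higher and lower, 3521 and 3221, were within 1.5 times of these under RLE scaling, library-size scaling, DESeq2, limma-voom, the older dispersion estimate, both other count filters and the GC offset. They rested on the spread of the co-culture pair. With all 5 libraries in the fit edgeR called 0 and 0, and without co-culture replicate 1 or 2, where the EX527 pair sets the spread, it called 0 to 0 in each direction. Without a fold condition 7795 genes were higher and 8094 lower, and with a 4-fold condition 1095 and 886. Of 148 named genes, 133 no longer passed the adjusted p with all 5 libraries. The other named genes did not pass it there either, as no tested gene did.

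Changes of sign among the named genes occurred only for genes that were not called: CA9 (-0.019 with RLE scaling, -0.020 with DESeq2, -0.27 with the GC offset), CALR (0.0048 with all 5 libraries, 0.013 without co-culture replicate 2), CD36 (-0.88) and PLIN2 (-0.61) without co-culture replicate 2, CDH2 (0.062) and PDIA4 (-0.082) with the GC offset, IRF9 (0.0013 by library size, 0.023 with 5 libraries, 0.060 without co-culture replicate 1) and CDKN1A (0.041 by library size, 0.035 with no filter, 0.015 at a minimum count of 50, 0.064 with 5 libraries, 0.044 and 0.086 without co-culture replicates 1 and 2). The cause was not tested. Of 47 list medians 4 changed sign with no filter, 4 with the GC offset, 2 without co-culture replicate 2, 1 with library-size scaling and 1 at a minimum count of 50.

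No paired analysis was possible because the monoculture library carries no replicate number. With 1 monoculture library its own variation is unknown, and genes at few reads are the least certain.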

Other observations

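FOXJ1 was among the largest increases, and other genes of motile cilia were therefore looked at, chosen after values of this comparison were seen and not tested as a list. TEKT2, a protein of ciliary microtubules, had 18.7 and 16.1 CPM in co-culture and 4.002 CPM in monoculture and was called higher (log2 fold change 2.07, SE 0.17). PIFO, of the ciliary base, had 9.17 and 10.2 CPM in co-culture and 2.81 CPM in monoculture, and SPAG6, of the central pair, had 2.97 and 3.50 CPM in co-culture and 0.995 CPM in monoculture, both called higher. The genes did not all go this way. CCNO, which drives the making of many centrioles, had 8.53 and 9.18 CPM in co-culture and 17.8 CPM in monoculture and was called lower, as was CFAP53 at 8.61 and 7.86 CPM with adipocytes against 16.4 CPM without. MCIDAS, an upstream factor of ciliated cells, had 1.32 and 1.57 CPM in co-culture and 1.08 CPM in monoculture, and DNAH5, a dynein arm motor, had 1.75 and 2.53 CPM in co-culture and 1.73 CPM in monoculture, neither called.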
